A study of Mus musculus with 15 samples.

Results

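Among 15 whole blood libraries, 1 library of each group held far more RNA of lipid-synthesis genes than the other 4 of its group. These 3 libraries, untreated 5, early ND 3 and late ND 5, are described here against the other 12. They were chosen on the readout itself, as the 3 libraries with the highest level of Scd3, a stearoyl-CoA desaturase, so every difference from the other 12 is a description and carries no test for single genes. By library totals, Scd3 stood at 817 CPM (counts scaled by the library total) in late ND 5, 619 CPM in untreated 5 and 329 CPM in early ND 3. The highest library outside the choice, late ND 4, stood at 180.0 CPM, and the lowest of the 12 at 9.89 CPM.

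The 15 libraries came from C57BL/6 mice, 1 library per animal and 5 animals in each group. The protocol given for every library is the transplantation of 1000000 4MOSC1 cells, a mouse oral squamous carcinoma line, into the tongue and 10 days of growth. The early ND and late ND mice received 2 doses of αCTLA-4, an antibody against an inhibitory receptor of T cells, and early or late neck dissection (ND), the surgical removal of the cervical lymph nodes, and the untreated mice received neither. The study's text and a legend place the bleeding differently relative to late ND, so late ND names the group here, whichever holds. Blood was drawn from the cheek, and clots were removed before RNA extraction.

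Lipid-secreting exocrine glands build large amounts of fatty acids, wax esters, ether lipids and cholesterol in cells that fill with lipid droplets. The sebaceous glands of the skin, the meibomian glands of the eyelid, the preputial glands and the Harderian gland of the rodent orbit are of this kind. They share much of their lipid program, while their keratins, secreted proteins and developmental regulators differ. Sebaceous glands arise from a stratified epithelium marked by Krt5 and Krt14, whereas the Harderian and lacrimal glands are lined by simple epithelium and depend in development on regulators such as Pax6 and Sox10.

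Printed first are the sequences upstream of 5 genes on which the description turns. Scd3 is the gene the choice used, Psapl1 followed it most closely among the other 12 libraries, Elovl5 and Bpifa6 were among the 15 genes that did so, and Krt8 is the simple-epithelium keratin with the largest difference. Each line gives the 250 bases before the RefSeq start site, 5′ to 3′ on the gene's strand, on build GRCm38.p6. The windows are chr19:44203038-44203287 (plus strand) for Scd3, chr5:36203771-36204020 (plus) for Psapl1, chr9:77917115-77917364 (plus) for Elovl5, chr2:153974695-153974944 (plus) for Bpifa6 and chr15:102004343-102004592 (minus) for Krt8. Capitals mark matches, on either strand, to CCAAT, to CACGTG (an E-box) or to TGACCT (a nuclear receptor half-site).
Scd3: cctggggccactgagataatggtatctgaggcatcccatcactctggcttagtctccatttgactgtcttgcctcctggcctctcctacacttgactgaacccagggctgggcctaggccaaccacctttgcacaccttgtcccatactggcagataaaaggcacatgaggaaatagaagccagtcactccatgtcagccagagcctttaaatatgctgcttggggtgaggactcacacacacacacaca
Psapl1: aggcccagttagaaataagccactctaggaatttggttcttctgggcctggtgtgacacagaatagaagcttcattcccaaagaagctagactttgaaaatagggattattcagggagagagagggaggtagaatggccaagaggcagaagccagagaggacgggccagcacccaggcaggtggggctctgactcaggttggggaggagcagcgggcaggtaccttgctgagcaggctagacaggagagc
Elovl5: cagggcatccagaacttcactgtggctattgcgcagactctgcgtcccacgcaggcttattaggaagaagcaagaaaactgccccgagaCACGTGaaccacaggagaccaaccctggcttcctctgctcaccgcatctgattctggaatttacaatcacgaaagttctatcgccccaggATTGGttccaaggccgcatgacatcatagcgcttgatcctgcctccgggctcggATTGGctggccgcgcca
Bpifa6: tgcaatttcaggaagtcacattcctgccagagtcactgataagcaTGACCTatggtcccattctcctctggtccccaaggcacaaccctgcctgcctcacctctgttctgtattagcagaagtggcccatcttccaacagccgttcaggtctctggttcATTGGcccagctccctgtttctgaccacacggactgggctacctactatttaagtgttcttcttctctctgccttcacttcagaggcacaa
Krt8: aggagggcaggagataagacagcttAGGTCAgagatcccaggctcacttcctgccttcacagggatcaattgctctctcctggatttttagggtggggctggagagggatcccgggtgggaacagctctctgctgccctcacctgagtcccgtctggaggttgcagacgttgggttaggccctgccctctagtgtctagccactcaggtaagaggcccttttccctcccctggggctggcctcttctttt

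Elovl5 held CCAAT 2 times and CACGTG once, Bpifa6 held CCAAT and TGACCT, and Krt8 held TGACCT. The Scd3 and Psapl1 windows held none of these letters, nor TATAAA or GGGCGG, which were searched as well. Over 32851 promoter windows of this length, CCAAT was in 33.9%, CACGTG in 6.02% and TGACCT in 14.02%. Over the 12724 windows of genes tested here the shares were 34.8%, 8.13% and 11.2%. Among the windows of 504 genes that were high in each of the 3 libraries (the shared set described next), they were 36.0%, 7.36% and 13.7%, so that the order against the background for CACGTG and TGACCT depends on which background is used. The match of a motif is a description of the letters in a window. Scd1 and Elovl3 had no entry in the sequence table used.

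Across the 14152 genes that passed a filter on low counts, 889 were called higher in the 3 libraries with group in the model (6.28% of genes tested) and 107 lower (0.756%). A call is an adjusted p under 0.05 in edgeR, used only to count and rank genes since the libraries were chosen on Scd3. Each of the 3 libraries lay above every other library for 690 genes (4.88%) and below every other for 69 (0.488%). Both conditions held for 660 genes, the shared set, of which 615 are protein coding. The shared set includes Scd3 and is fixed by the same contrast, so its size is read against nothing. Its median log2 difference was 2.13, against -0.03 over all genes tested, and single genes ranged from 0.41 to 4.21. When library totals replaced TMM scaling, the median of all genes moved to 0.23, and 771 genes were called higher and 0 lower, so relative to all genes the excess of higher genes held while the lower calls did not. On library totals 490 of the 660 genes remained above every other library in each of the 3.

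The shared set took 3.59% of gene counts in untreated 5, 2.13% in early ND 3 and 3.47% in late ND 5. In the other 12 libraries its share ran from 0.241% to 1.17%, with a median of 0.707%, and no other library reached the lowest of the 3. The set was defined by genes highest in each of the 3 libraries. This separation and the differences below therefore follow from the definition and are a description. Against the 4 unchosen libraries of its own group, the median set gene differed by 2.16 on the log2 scale in untreated 5, by 1.63 in early ND 3 and by 1.37 in late ND 5. The set was also graded within the other 12, where its median stood at 0.34 in late ND 4, 0.30 in untreated 3 and 0.28 in untreated 4, against -0.36 in untreated 1. These values are log2 of normalized CPM plus 0.5, where normalized CPM is a count scaled by the TMM-adjusted library size in place of the total.

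**Figure D1:**
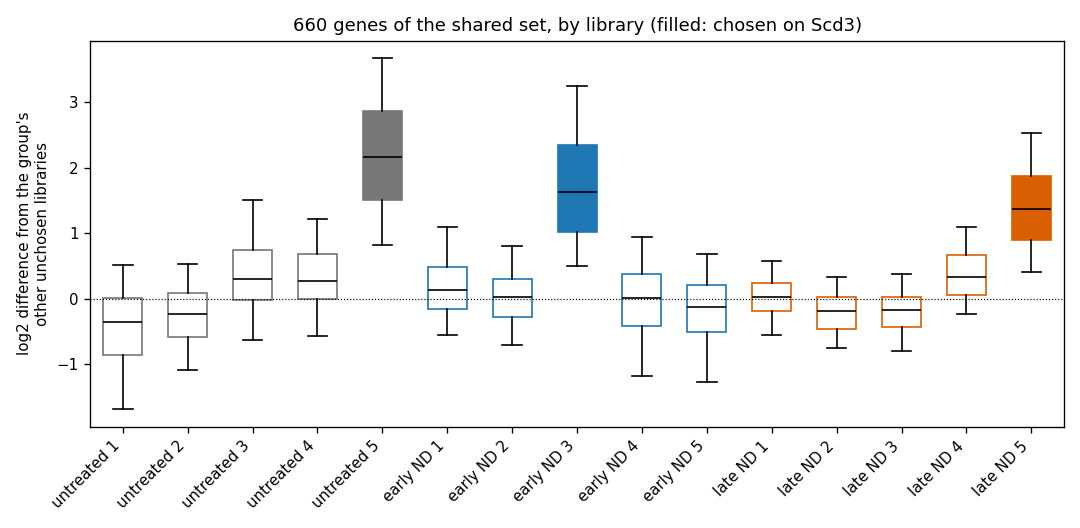
Boxes give the log2 difference (y axis, normalized CPM plus 0.5) of the 660 genes of the shared set in each library (x axis) from the mean of the other unchosen libraries of its group, with the median, the quartiles and whiskers from the 5th to the 95th percentile. The filled boxes of untreated 5, early ND 3 and late ND 5 have medians of 2.16, 1.63 and 1.37, and the open boxes of the other 12 have medians from -0.36 to 0.34. The filled boxes are high by the definition of the set.

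Most general measures of the 3 libraries lay within the range of the other 12. Gene counts were 6248017, 7182346 and 9320983 per library, within the range of 5527108 to 13924361 in the other 12. The hemoglobin genes took 14.9% to 41.9% of counts, against 17.5% to 64.1%, and late ND 5 had the lowest share of all 15. The 18S gene Rn18s-rs5 stood at 25967 to 47445 CPM in the 3 libraries, while untreated 2, late ND 2 and late ND 3 had 313 to 766 CPM. Without those 3 libraries poor in 18S sequence, 798 genes were called higher, 65 lower, and 667 met both conditions of the shared set. Genes of mitochondrially encoded proteins took 1.64% to 2.11% of counts in the 3 libraries and 0.433% to 2.12% in the other 12, and the part of this share in the other differences was not tested. No 2 libraries agreed closely enough to be repeats of 1 library, with a highest correlation of 0.979 between log2 values.

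The 4 genes given as markers of the chosen libraries all lay above every other library in each of the 3. Scd3 stood at 621 normalized CPM in untreated 5, 322 in early ND 3 and 479 in late ND 5, against 21.0 to 145 (median 39.1) in the other 12, a log2 difference of 3.02 (SE 0.37). These Scd3 values restate the choice. Elovl3, an elongase of very long fatty acids of sebaceous and other lipid-secreting glands, stood at 306, 182 and 169 in the same order, against 8.29 to 52.8 (median 20.3). Its log2 difference was 3.29 (SE 0.27). Krt79, a keratin of sebaceous ducts, stood at 24.7, 9.53 and 13.98, against 0.401 to 4.22, and Mc5r, a melanocortin receptor required for exocrine gland secretion, at 24.9, 9.94 and 7.81, against 0 to 3.45. The log2 differences were 3.17 (SE 0.34) for Krt79 and 3.52 (SE 0.35) for Mc5r. For all 4 markers the values of the 3 libraries and those of the other 12 did not overlap. Over all genes tested, 4.88% lay above every other library in each of the 3. The markers were given with earlier results of these data known, so their separation is a description. Of the exon bases of Elovl3, 18.3% lie opposite exons of Pitx3, and of Scd3, 10.98% lie opposite Gm50323. The strand setting of the counting is not given in the sources used here, so reads of such partners cannot be told apart.

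**Figure D2:**
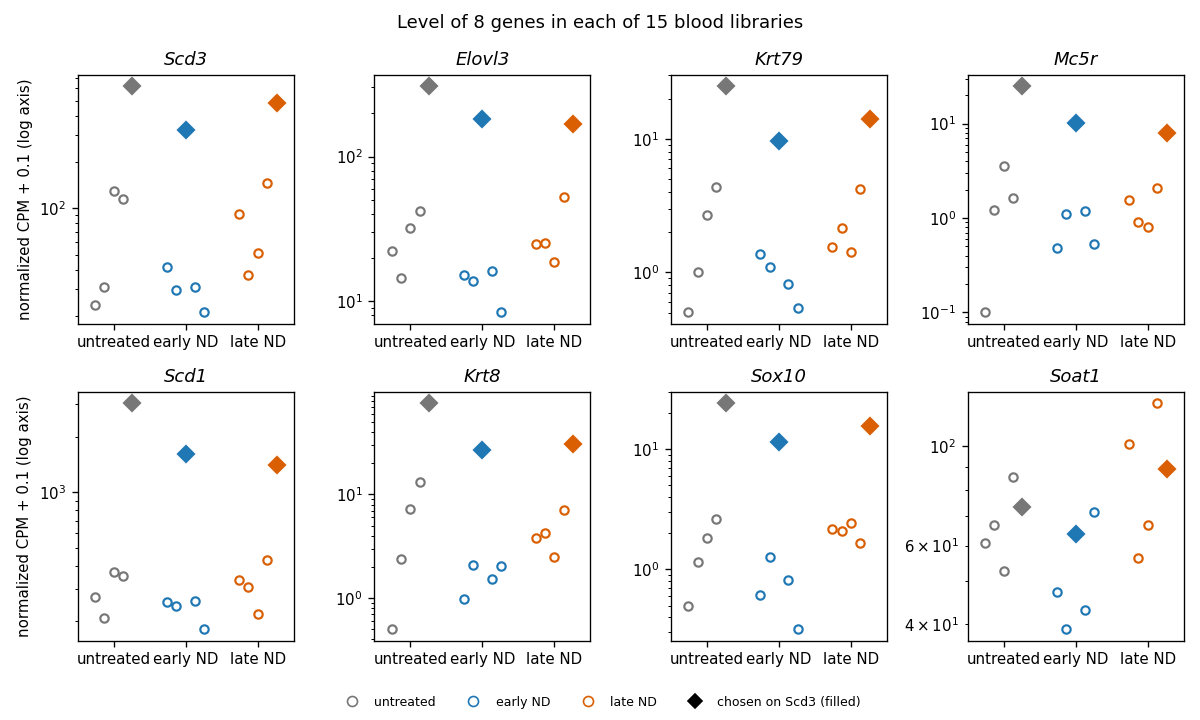
Each panel shows 1 gene, with the 15 libraries by group on the x axis and normalized CPM plus 0.1 on a log y axis. Diamonds are the libraries chosen on Scd3 and circles the others. The diamonds lie above every circle for Scd3, Elovl3, Krt79, Mc5r, Scd1, Krt8 and Sox10, whereas for Soat1 they lie at 63.5 to 88.8 among circles from 38.9 to 125.

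Genes that characterize sebocytes, the lipid-laden cells of sebaceous glands, were for the most part higher. Of 14 listed genes 11 were tested, and 9 of them were called higher and lay above all other libraries, with a list median of 3.02 against -0.03 over all genes. Over all genes tested, 6.28% were called higher and 4.88% lay above every other library in each of the 3. The list holds Scd3, on which the choice was made, and without it 8 of 10 were called higher with a median of 2.96. Scd1, the desaturase of sebaceous and other lipogenic tissues, stood at 3039, 1605 and 1406 normalized CPM in untreated 5, early ND 3 and late ND 5, against 181 to 431 in the other 12, a log2 difference of 2.80 (SE 0.20). The 3 values are each more than the highest of the other 12. Cidea, a lipid droplet protein, differed by 3.47 on the log2 scale, the acyltransferase gene Dgat2l6 by 3.13, Pparg, a nuclear receptor of lipid storage, by 2.24 and the fatty acyl-CoA reductase Far2 by 1.95. Soat1, which esterifies cholesterol, was not called, at 73.0, 63.5 and 88.8 normalized CPM among 38.9 to 125. Mgst1, a microsomal glutathione transferase, was not called either, with a log2 difference of 0.61 (SE 0.27). The 2 wax ester synthases of the list did not follow the others. Awat1 had 0 counts in all 15 libraries, and Awat2 stood at 0.481, 0.136 and 0.252 normalized CPM among 0 to 0.862. The hydroxylase Fa2h, at most 0.063 in the 3 libraries, was likewise too low to be tested.

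Core enzymes of fatty acid and glycerolipid synthesis were higher, with 10 of 19 tested genes called higher, 0 lower and a list median of 0.92. The share called higher over all genes tested was 6.28%. Fasn, the fatty acid synthase, stood at 742 in untreated 5, 441 in early ND 3 and 597 in late ND 5, against 57.6 to 155 normalized CPM in the other 12, a log2 difference of 2.68. The elongases Elovl5 and Elovl6 differed by 2.92 and 2.83, Acaca, the first committed enzyme of fatty acid synthesis, by 2.45, Scd2 by 2.17 and the citrate lyase Acly by 1.77. Me1, the malic enzyme that supplies NADPH, had the largest difference of the list, 3.30, and 35.5% of its exon bases lie within exons of other genes. The desaturases of polyunsaturated fatty acids were not called, with log2 differences of -0.41 for Fads1 and -0.31 for Fads2. The genes Scd1, Scd2 and Scd3 are close copies of one another, and how the counting split reads between them is uncertain.

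Cholesterol synthesis was changed in part, with 5 of 16 tested genes called higher, 0 lower and a median of 0.46. The share called higher over all genes tested was 6.28%. Sqle, the squalene epoxidase, differed by 2.84, Lss, which forms lanosterol, by 2.35, Insig1, a sterol-dependent brake of the pathway, by 2.28, Nsdhl by 1.57 and Cyp51 by 1.35. Sqle stood at 136, 58.0 and 65.0 normalized CPM, against 6.13 to 22.2 in the other 12. The synthase Hmgcs1 was not called, with a log2 difference of 0.25. The called enzymes act at or after squalene epoxidation, and no tested enzyme before that step was called.

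Several lists were added after the values had been seen and are given as description of the shared set. Beside their counts, 6.28% of all genes tested were called higher. Ether lipids, in which a fatty alcohol replaces a fatty acid, are made in part in peroxisomes, and 7 of 9 genes of this pathway were called higher, with a median of 0.90. Agps, the enzyme that forms the ether bond, stood at 738, 320 and 320 normalized CPM in untreated 5, early ND 3 and late ND 5, against 39.4 to 127 in the other 12, a log2 difference of 2.67. Chpt1, a choline phosphotransferase, differed by 2.99, and Dhrs7b by 1.13. Of 17 genes of peroxisomal beta-oxidation and biogenesis 12 were called higher, with a median of 0.89. Acox2, an acyl-CoA oxidase of branched chains, had the largest difference there, 4.14, followed by Acaa1b at 3.07, Pex11a, which divides peroxisomes, at 3.0 and the fatty acyl transporter Abcd3 at 2.67. Acox2 had 64, 37 and 77 counts in untreated 5, early ND 3 and late ND 5 and at most 24 in any other library. It passed the filter on low counts through the chosen libraries, so its call is no support. Of 10 ceramide synthesis genes 3 were called higher. Sptlc3, a subunit of the first enzyme of the pathway, differed by 3.36, Cers4 by 2.80 and Sptlc1 by 2.5, and Degs2 was not called at -0.53. Without untreated 5, 4 ether lipid genes and 8 peroxisomal genes were called higher, and 3 ceramide genes.

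The label given to the 3 libraries, skin-gland lipid genes, names lipid genes, which were higher as described above. Most genes of the epidermis and hair were too low to be tested, so they cannot show whether the label extends to those tissues. Over all genes tested, 6.28% were called higher. Of 20 genes of the epidermis 5 were high enough to be tested and 1 was called higher, Perp, a membrane protein of desmosomes, at 2.5. Krt2, Krt77, Flg, Flg2 and Krtdap had 0 counts in all 15 libraries. Krt5 stood at 1.44, 0.409 and 0.252 normalized CPM in the 3 libraries, within the 0 to 3.64 of the other 12, and Krt14 at 0.802, 0 and 0.252, within 0 to 0.803. Neither keratin of the basal layer set the 3 libraries apart, at levels that rest on few counts. Sfn, at 13.8, 9.13 and 13.03, and Calml3, at 3.69, 3.95 and 4.72, were present in every library and not called. Of 19 genes of the hair shaft and inner root sheath 14 had 0 counts in all libraries, and Krt86, the 1 tested, was not called. In the list of the sebaceous duct and upper hair follicle 3 of 4 tested genes were called higher, Krt79, Sox9 at 3.08 and Plet1 at 1.92. Sox9 passed the filter on low counts through the 3 chosen libraries alone. Lrig1, a stem cell marker of that site, had a log2 difference of 0.06. Of the melanocyte list 1 gene was tested, Pmel, and it was not called. Without early ND 3, or without the 3 libraries poor in 18S sequence, 1 of 2 melanocyte genes was called higher.

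A pair of simple-epithelium keratins, Krt8 and Krt18, were called higher. Krt8 stood at 76.4 in untreated 5, 26.6 in early ND 3 and 30.7 in late ND 5, against 0.401 to 13.2 normalized CPM in the other 12, a log2 difference of 3.50 (SE 0.36). Its partner Krt18 stood at 16.4, 8.44 and 6.55, against 0 to 2.07, a difference of 2.87. Neither of this pair overlapped between the 3 libraries and the rest. Of all genes tested, 4.88% lay above every other library in each of the 3, and 6.28% were called higher. Other simple-epithelium keratins did overlap, as Krt7 stood at 4.17, 6.67 and 5.73 among 1.53 to 9.79 and was not called (log2 difference 0.10), and Krt19, too low to be tested, at 1.12, 1.23 and 0.567 among 0.0802 to 1.33. In the list of oral epithelium and carcinoma, which could mark cells of the tongue tumor, 4 of 7 tested genes were called higher, and all 4 are genes of simple epithelium too: Krt8, Krt18, Epcam at 2.7 and Cdh1 at 1.88. In a wider list of simple epithelium, added after the values had been seen, 14 of 17 tested genes were called higher, with a median of 2.30. Among them were the tight junction genes Cldn7 at 3.42 and Cldn3 at 3.29, the splicing regulator Esrp1 at 3.09 and Marveld3 at 3.06. For Cldn3, 72.0% of the exon bases lie opposite exons of Wbscr25. Cldn3 had 83, 25 and 111 counts in untreated 5, early ND 3 and late ND 5 and at most 14 in any other library. It passed the filter on low counts through the chosen libraries, so its call is no support.

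Regulators of eye and orbital gland development, a list also added later, were tested for 6 of 15 genes, and all 6 were called higher and lay above every other library in each of the 3. Sox10, a transcription factor of the neural crest and of lacrimal and salivary glands, stood at 24.2, 11.4 and 15.7 normalized CPM in untreated 5, early ND 3 and late ND 5, against 0.218 to 2.53 in the other 12. Its log2 difference was 3.62 (SE 0.25). Pax6, required for the eye and the orbital glands, stood at 14.8, 3.81 and 6.42, against 0.401 to 1.44, a difference of 3.10. Otx1, a homeobox factor of the anterior head, differed by 3.38, Pitx3, a homeobox factor of the lens, by 3.53, Sox9 by 3.08 and Foxc1 by 2.13. The filter on low counts favors such calls, since a gene high in the 3 chosen libraries alone can pass it. Sox9 had 13, 13 and 22 counts in them and at most 6 in any other library, and Pitx3 had 35, 15 and 25 against at most 13. Both passed through the chosen libraries, as did Otx1, with 67, 22 and 99 counts against at most 17. Over all genes tested, 6.28% were called higher. The count of 6 of 6 is, by this filter, a description and no support. Without untreated 5, 4 genes of this list were called higher. Of the exon bases of Pitx3, 11.5% lie opposite Elovl3, where reads of the one and the other cannot be told apart. Otx2, Six6 and Rax, which act in the retina, had 0 counts in every library, and no gene of a retina and lens list was high enough to be tested. In the Schwann cell list Sox10 was the 1 of 3 tested genes called higher, and the myelin gene Mbp had a log2 difference of -0.20.

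With all 15 libraries no gene of the salivary and lacrimal gland list was high enough to be tested, although a pair of its genes were seen mainly in the 3 libraries. Lpo, the lactoperoxidase of saliva and tears, stood at 1.44 in untreated 5, 2.59 in early ND 3 and 1.07 in late ND 5, against 0 to 0.441 normalized CPM in the other 12. Bpifa2, a secreted lipid-binding protein of the parotid gland, stood at 1.76, 1.91 and 0.504, against 0 to 0.263. The filter on low counts depends on the libraries kept. Without the 3 libraries poor in 18S sequence 3 genes of the list were tested and 2 called higher. Without any 1 of untreated 5, early ND 3 or late ND 5 the 1 gene tested was called higher. Genes this low in the other 12 libraries pass the filter through the chosen ones. These calls therefore follow largely from the filter and add no support. Smr3a, Mucl2, Dcpp1, Dcpp2 and Pip had 0 counts in all 15 libraries. The related gene Bpifa6 was among the genes closest to Scd3, at 3266 normalized CPM in untreated 5, 1854 in early ND 3 and 1479 in late ND 5, against 86.2 to 526 in the other 12, a log2 difference of 3.08. As a description, the shared genes included lipid-synthesis genes, simple-epithelium genes and regulators known from orbital glands. The wider simple-epithelium list and the list of regulators were made after the values had been seen. Sox9 of the latter is also in the sebaceous duct list. Most epidermal genes, nearly all hair genes and the genes of the retina and lens list were too low to be tested. No gland is named from these values.

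**Figure D3:**
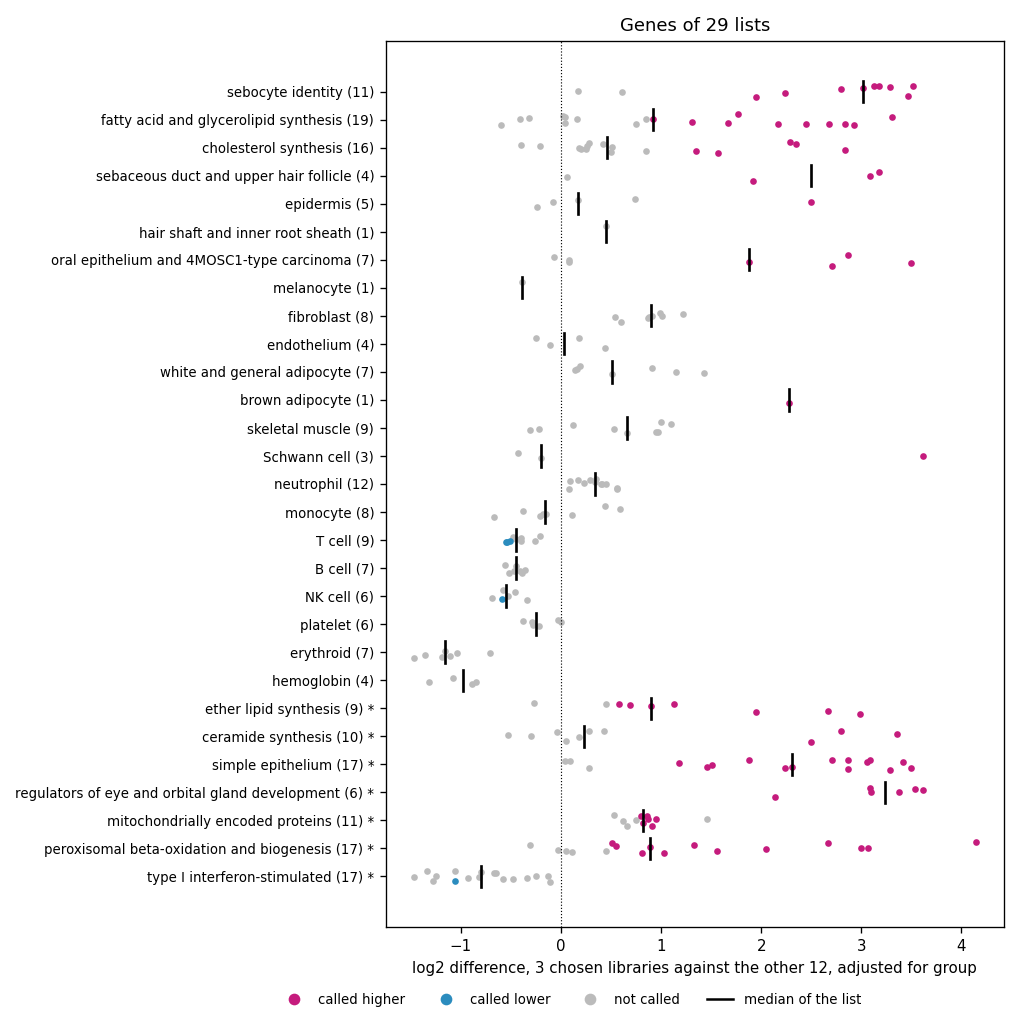
Points are the tested genes of 29 lists, 1 list per row with the number tested in parentheses, and the x axis is the log2 difference of the 3 chosen libraries from the other 12, adjusted for group. Asterisks mark lists added after the values had been seen. The list of sebocyte identity, which holds Scd3, has a median of 3.02 (2.96 without Scd3) and that of simple epithelium 2.30, whereas the T cell list has a median of -0.45.

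Besides those genes, the 25 largest differences in the shared set were led by Gm36026, a long noncoding RNA gene that overlaps Krt8, at 4.21, and Acox2 at 4.14. Most of the 25 were low in the other 12 libraries, where 20 of them had a library at 0, so the sizes of their fitted differences depend on few counts. Genes this low outside the 3 libraries can pass the filter through the chosen ones, so these calls are a description. Gm36026 stood at 9.46, 5.04 and 3.65 normalized CPM in the 3 libraries, against 0 to 0.845. Regulators among the 25 were Mecom, a zinc finger factor, at 3.59 and Tfap2c, an AP-2 factor of ectoderm and gland epithelium, at 3.54. Genes of the cytoskeleton and transport were Kif21a, a kinesin, at 3.75, Cobl, an actin nucleator, at 3.51 and Map2, a microtubule-associated protein, at 3.48. Acsl6, which activates long fatty acids, was at 3.49 and Sec14l4, of a lipid-transfer family, at 3.65. Mecom stood at 20.2, 6.67 and 8.94 normalized CPM, against 0.209 to 1.82.

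Few genes of other solid tissues were called, as were few of all genes tested (6.28% higher, 0.756% lower). In lists this short, such shares alone give few calls or none. In the fibroblast list 0 of 8 tested genes were called, in the white adipocyte list 0 of 7 and in the skeletal muscle list 0 of 9. Their medians were 0.90, 0.51 and 0.66, against -0.03 over all genes. Cfd, the adipocyte gene with the largest difference, stood at 1.28 in untreated 5, 11.7 in early ND 3 and 1.51 in late ND 5, against 0 to 4.32 normalized CPM. Acta1, of skeletal muscle, stood at 1.12, 9.13 and 0.944, against 0 to 6.49. Cfd and Acta1 were thus high in early ND 3 and within the range of the other libraries in untreated 5 and late ND 5. The summed normalized CPM of these lists behaved alike. In early ND 3 the sums were 71.4 for fibroblast, 67.7 for white adipocyte and 68.4 for muscle genes. The other 12 libraries reached at most 47.4, 50.4 and 49.9. In untreated 5 and late ND 5 the sums lay within the range of the other 12. On library totals, 2 fibroblast genes and 1 white adipocyte gene were called higher, and 1 muscle gene by DESeq2. Without the 3 libraries poor in 18S sequence 1 white adipocyte gene was called higher. In the brown adipocyte list the 1 tested gene, the deiodinase Dio2, was called higher at 2.28 but not without untreated 5, without late ND 5 or without the libraries poor in 18S sequence, and the defining gene Ucp1 had 0 counts in every library. Dio2 had 21, 16 and 21 counts in untreated 5, early ND 3 and late ND 5 and at most 10 elsewhere. It passed the filter on low counts through the chosen libraries. Of 4 endothelial genes 0 were called, and no hepatocyte gene was high enough to be tested.

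Few blood cell genes were called, where 6.28% of all genes tested were called higher and 0.756% lower. In the T cell list 3 of 9 genes were called lower with a median of -0.45, namely the receptor chains Cd3d at -0.54 and Cd3g at -0.51 and Cd8a at -0.54, and 0 were called when library totals replaced TMM. In the NK cell list 1 of 6, the granzyme Gzma, was called lower at -0.59, and 0 with library totals, without untreated 5, without early ND 3 or without the 3 libraries poor in 18S sequence. Without late ND 5, 2 were called lower. Gzma stood at 30.8, 33.1 and 34.1 normalized CPM, against 38.9 to 71.6 in the other 12. In bulk blood, fewer cells of a type and less RNA per cell cannot be told apart. None of the 12 neutrophil, 8 monocyte, 7 B cell, 6 platelet, 7 erythroid or 4 hemoglobin genes was called, with list medians of 0.34, -0.16, -0.45, -0.25, -1.16 and -0.98. By DESeq2, 2 erythroid genes were called lower. Of 17 interferon-stimulated genes, a list added later, 1 was called lower, Mx1 at -1.06, and 0 with library totals, without untreated 5 or without late ND 5. Without early ND 3, 2 of 18 were called lower, and 3 of 17 by DESeq2. Among 11 tested genes of mitochondrially encoded proteins, also added later, 6 were called higher with a median of 0.82, and none lay above every other library in each of the 3. The mitochondrial and T cell calls depended on single libraries, with 0 of the mitochondrial genes called without untreated 5, 0 without early ND 3 and 2 without late ND 5, and with 0 T cell genes called without untreated 5 or without early ND 3.

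Genes that were lower in each of the 3 libraries were few, 23 in all that were also called, and small in difference. The largest were Phf11b at -1.33, Bambi-ps1, a pseudogene, at -1.20, the NK receptor gene Klra7 at -1.03 and Pdlim4 at -1.03. Phf11b stood at 5.61 in untreated 5, 5.99 in early ND 3 and 7.24 in late ND 5, against 9.53 to 22.0 normalized CPM in the other 12. The count of genes called lower depended on scaling and on single libraries, as it was 0 with unscaled library totals, 16 without untreated 5, 30 without early ND 3, 202 without late ND 4, 51 without late ND 2, 67 without late ND 3, 57 without late ND 1 and 56 without late ND 5. Untreated 5 carried the most weight for the higher genes as well, with 531 called higher without it, of which 498 belong to the shared set.

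Levels of the same genes were then followed across the 12 libraries that were not chosen, after centring each group. Pearson's r with Scd3 is given as a description over 12 libraries that share library size and scaling with Scd3. The closest gene was Psapl1, a prosaposin-like gene, with r = 0.97, followed by Elovl5, Paqr7, a membrane progestin receptor, and the ceramide synthase Cers4, each with r = 0.96. The others were BC048679 and the lipid droplet coat gene Plin2, Hsd17b12, a reductase of fatty acid elongation, Bpifa6, Secisbp2l and Ermp1, then the acetyl-CoA carboxylase Acacb, Wdr44, the actin-severing gene Scin, the homeobox gene Irx1 and Mogat1, an acyltransferase of monoacylglycerol, down to r = 0.90. Of the 15 genes, Wdr44 was the 1 outside the shared set, at 14.4, 14.7 and 14.1 normalized CPM in the 3 libraries among 10.0 to 21.8. Its log2 difference was -0.19, and 0.08 on library totals. The median r was 0.44 over the other 659 genes of the shared set and 0.02 over all genes tested. A value of r above 0.8 was found for 72 of the 659 and for 115 of all genes tested.

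Psapl1 stood at 784 normalized CPM in untreated 5, 423 in early ND 3 and 492 in late ND 5. In the other 12 it ran from 32.5 to 143, with the highest values in untreated 3 (143), late ND 4 (129) and untreated 4 (121), the same libraries in which Scd3 was highest at 130, 145 and 115. The intermediate levels of these 3 libraries lay between those of the chosen libraries and those of the remaining 9. Ratios of counts to Scd3 compare the mixture of genes from library to library. Psapl1 and Elovl5 were named for their closeness to Scd3 over the other 12. Their ratios there and their shared high libraries thus follow in part from that choice. Psapl1 counts were 1.26 times those of Scd3 in untreated 5, 1.32 in early ND 3 and 1.03 in late ND 5, within the range of 0.789 to 2.0 in the other 12. For Elovl5 the ratios were 3.13, 3.12 and 2.07, within 2.04 to 5.36. Scd1 gave 4.90, 4.99 and 2.93, within a wider 2.85 to 11.6. Agps gave 1.19, 0.994 and 0.669, with late ND 5 below the 0.697 to 2.75 of the other 12. For Krt8 they were 0.123, 0.083 and 0.064, with untreated 5 above the 0.017 to 0.114 of the other 12. Ratios to Scd3 were lower in late ND 5 than in untreated 5 for 11 of 12 genes examined, Fasn being the exception at 1.24 against 1.20.

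**Figure D4:**
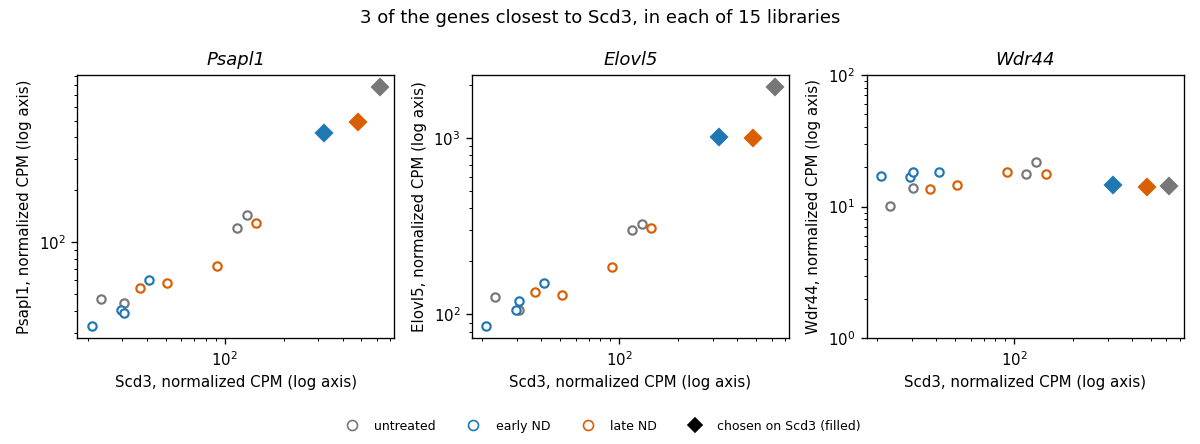
Each point is 1 of 15 libraries, with Scd3 on the x axis and Psapl1, Elovl5 or Wdr44 on the y axis, in normalized CPM on log axes. Psapl1 and Elovl5 rise with Scd3 from 32.5 to 784 and from 85.6 to 1942, whereas Wdr44 stays between 10.0 and 21.8. The genes shown were picked among those closest to Scd3 over the unchosen libraries.

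Late ND and early ND, the groups whose comparison did not enter the choice, each contained 1 of the 3 libraries. With all 10 libraries, 333 genes were called higher after late ND (2.5% of 13315 tested) and 330 lower (2.48%) by edgeR. Of the shared set 481 genes were tested and 0 were called in either direction by edgeR, with 6 at an unadjusted p under 0.05 in the higher direction and 0 called higher by DESeq2. The median log2 difference of the set was 0.13, against 0.01 over all genes. Scd3 differed by 0.84 (SE 0.85, adjusted p = 0.602 by edgeR), and the SE was as large as the difference.

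Without early ND 3 and late ND 5, 725 genes were called higher (5.51% of 13168 tested) and 489 lower (3.71%), and 566 calls were shared with the comparison of all 10. Of the shared set, 449 genes were tested, 19 were called higher and 2 lower, and the median was 0.27 against -0.02 over all genes. Scd3 stood at 41.2, 29.5, 30.6 and 21.0 normalized CPM in early ND 1, 2, 4 and 5, and at 91.6, 37.0, 50.8 and 145 in late ND 1 to 4. The groups overlapped at 1 library on each side, and the log2 difference was 1.39. It carries no test, since the pair left out held the highest Scd3 of each group and the spread within groups is narrowed by that choice (SE 0.38, against 0.85 with all 10). The same narrowing applies to genes of the shared set, whose calls and differences here are a description. Krt8 stood at 0.890, 1.99, 1.44 and 1.96 in the 4 early ND libraries and at 3.73, 4.13, 2.41 and 7.02 in the 4 late ND libraries, with no overlap. Late ND lay wholly above early ND in this way for 69 of the 660 genes of the shared set. The share over all genes was not counted, so the separation of Krt8 is a description. The difference of Krt8 rose from 0.44 with all 10 libraries to 1.47 (SE 0.41). Elovl3 differed by 1.18, Sox10 by 1.59 and Krt79 by 1.26, the last without a call.

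The other set genes called higher after late ND in these 8 libraries included Fasn at 0.83, Plin2 at 1.03, Irx1 at 1.48, Paqr7 at 1.00 and BC048679 at 0.91. The 2 called lower were Nedd4, a ubiquitin ligase, at -0.64 and Cavin1, a caveola coat gene, at -0.96, both named after their values were seen. With all 10 libraries kept and the choice entered as a covariate, 575 genes were called higher (3.91% of 14707 tested) and 449 lower (3.05%), 17 of the shared set were called higher, and Scd3 differed by 1.25. The covariate is defined by the highest Scd3 values, so this difference carries no test either. Leaving out early ND 3 alone gave 29 set genes called higher, and leaving out any other single library gave 0. Late ND libraries also had lower hemoglobin shares (14.9% to 29.3%) than early ND libraries (38.3% to 64.1%), and the part of blood composition in these differences was not tested.

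**Figure D5:**
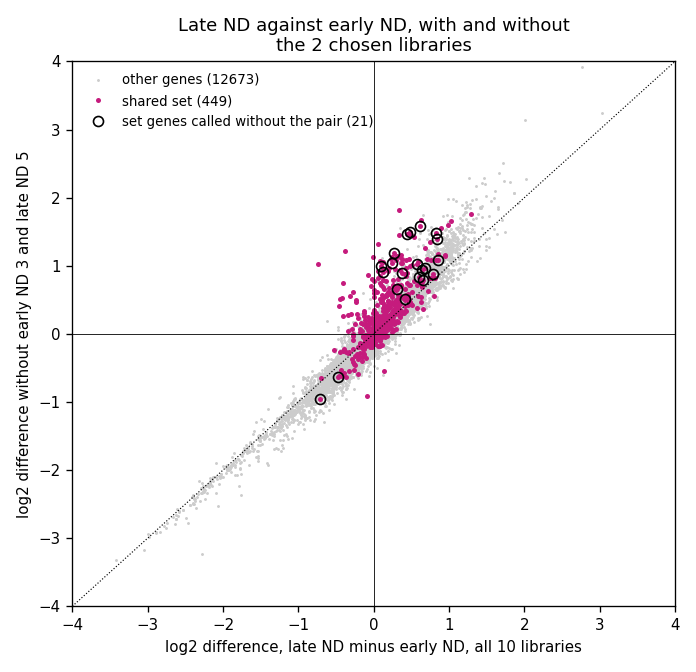
Each of 13122 genes is placed by its log2 difference of late ND minus early ND with all 10 libraries (x axis) and without early ND 3 and late ND 5 (y axis), and the dotted line marks equal values. Of the 449 genes of the shared set 311 lie above the line, and rings mark the 21 set genes called when the pair was left out.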

How the data were processed

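RNA of whole blood was sequenced as paired-end reads of 150 bases, 1 library per mouse, and 15 libraries were analysed. The authors deposited raw counts of read pairs per gene, made, per the labels, with STAR 2.7.9 on GRCm39, SAMtools 1.7 and HTSeq 0.13.5, without normalization. The annotation release and strand setting are not given in the sources used here. Read pairs that aligned to several places were not counted. Of 55416 gene identifiers in each table, 54749 matched the GRCm39 annotation (GENCODE vM39). HTSeq's 5 counters of unassigned pairs are no genes and were left out.

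The members, the gene lists and the rules were chosen with earlier results of these data known, and lists said to be added were made after the values had been seen. Counts were fitted with edgeR 4.0.16 (R 4.3.3) after filterByExpr with a minimum count of 10 and TMM scaling. The quasi-likelihood test had group and the choice on Scd3 as terms for 15 libraries, or group alone for late ND against early ND, with Benjamini-Hochberg adjustment over all genes tested and a threshold of 0.05. SE is that of the log2 difference. DESeq2 1.42.0, other scalings, no filter, a replicate block and each library left out were alternatives. The script was tested on simulated data, where 197 of 200 genes changed by 2 on the log2 scale were recovered among 13859 genes for the choice on Scd3, with 9 false calls. The simulation gave every gene the same setting of spread and the libraries no differences in composition. These rates therefore check the script and do not carry over to the calls here. Named were the 4 markers, the tested sebocyte genes, the 25 largest higher and 10 largest lower genes that were called, beyond every other library in each of the 3 and had a mean of at least 10 counts there, the 15 genes closest to Scd3 over the other 12 libraries, and up to 4 genes per list with the largest differences, with exceptions where a statement needed another member of a list. Correlations used log2 CPM with a prior count of 2. Gene counts ran from 5527108 to 13924361 per library, so that a gene at 1 normalized CPM rests on few counts.

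Correlations between libraries with the same replicate number ran from -0.26 to 0.61. The highest was between untreated 5 and late ND 5, both chosen on Scd3, and all pairs of untreated with late ND were above 0. Early ND 5 gave -0.26 with untreated 5 and -0.191 with late ND 5. The numbers were not taken to pair the mice. Promoter sequences are from RefSeq on GRCm38.p6, and no coordinates were converted between builds. Some genes of the lists are not reported here.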

Additional observations from a re-analysis of the deposited data

Results flagged for a closer look

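In groups of 5 libraries, the gap of the highest or lowest library to its nearest neighbour was divided by the range of the group, and ratios above 0.71 (Dixon's 95% critical value) are given here. Of 93 groups 24 were above it. Most of these flags fall on the 3 libraries chosen as the highest in Scd3 of their group, so the count is not set against a chance rate. For the shared set the choice itself fixes the high library: its share of counts gave 0.849 for untreated 5, 0.778 for early ND 3 and 0.937 for late ND 5. For the summed normalized CPM of gene lists, the same 3 libraries, in the same order, gave 0.925, 0.979 and 0.769 for sebocyte identity (a list that holds Scd3), 0.894, 0.955 and 0.767 for fatty acid and glycerolipid synthesis and 0.854, 0.902 and 0.783 for cholesterol synthesis. They gave 0.815, 0.738 and 0.744 for the sebaceous duct and upper hair follicle and 0.826, 0.734 and 0.823 for oral epithelium and carcinoma. The epidermis list, where Perp alone was called, gave 0.729 in untreated 5 and 0.731 in late ND 5.

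Among the other lists, the salivary and lacrimal gland list was far above its group in early ND 3, at 0.895. Its sum there was 5.31 normalized CPM, against 0.140 to 1.61 in the 12 unchosen libraries. The sum was 5.13 in untreated 5 and 2.83 in late ND 5, so this list too was highest in the libraries chosen on Scd3. The monocyte list gave 0.725 in late ND 4, which was high. The platelet list gave 0.771 in untreated 5, the lowest of its group at 1631 normalized CPM. The number of gene counts gave 0.808 for untreated 2, which had 10796099 counts.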

How the results depend on the processing

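The comparison of the 3 chosen libraries with the other 12 gave 889 genes higher, 107 lower and 660 in the shared set. With the replicate block these were 422, 24 and 401, and 395 of the 660 set genes were still called, although the numbers were not taken to pair the mice. DESeq2 gave 252 lower, library totals in place of TMM 0 and the data without the 3 libraries poor in 18S sequence 65. Leaving out single libraries gave 531 to 936 higher, 16 to 202 lower and 510 to 739 in the shared set. Late ND against early ND gave 333 higher and 330 lower with the 10 libraries, and 306 and 270 with the replicate block. Higher calls were 201 with RLE size factors, 886 without a filter, 769 with DESeq2 (670 lower), 725 without early ND 3 and late ND 5 and 575 with the choice as a covariate. Set genes higher numbered 19 and 17 in the last 2 of these, and 0 under the others. Leaving out single libraries gave 36 to 1057 higher, 106 to 553 lower and 0 to 29 set genes higher, with all 3 highs without early ND 3. Higher calls fell to 99 or fewer without any 1 of early ND 1, early ND 2, early ND 4, late ND 1, late ND 3, late ND 4 or late ND 5. The cause of these shifts was not tested. Of 1260 values of single genes under alternatives of the first comparison, 1259 kept their sign, and Wdr44 reversed to 0.075 with library totals. Depth limits genes under about 1 normalized CPM, which few counts support.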
